A study of Mus musculus with 2 samples.

Results

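Secretory progenitors and enteroendocrine cells (EECs) of the jejunal crypt were compared in mice that lacked miR-375. Both sets were taken as the study's own cell annotation names them, a single cluster each: 50 secretory progenitors and 74 EECs, together 124 of the 3275 annotated 375KO cells. The study profiled crypt cells of male mice of 12 months, strain label C57BL6/2J, by droplet single-cell RNA-seq with unique molecular identifiers (UMIs). The knockout was a whole-body deletion made by CRISPR/Cas9 in hybrid FVB and B6 embryos and crossed back to B6 albino mice, so every cell compared here carried it, and wild-type cells were not analysed here. Each of the 2 mice gave 1 library, here replicate 1 (31 secretory progenitors, 54 EECs) and replicate 2 (19 and 20). UMIs were summed per library and cell type, which gave 2 sums a side that pair by mouse. The fit had terms for type and library over 18 sums of 9 epithelial types. The p-values therefore rest on the spread left after both terms, shared over all 9 types, and only 2 animals stand behind them.

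The secretory progenitor sums held 460472 and 224086 UMIs and the EEC sums 620638 and 215413 UMIs (replicates 1 and 2). A secretory progenitor had a median of 13081 and 10628 UMIs and an EEC 7399.5 and 9389.5. The median mitochondrial share was 8.88% and 5.73% in secretory progenitors and 4.71% and 2.19% in EECs. The matrices hold stored entries of 0 (2.56% and 4.19% of all entries), which plain counting does not leave, and whether they were corrected for ambient RNA was not given. A value of 0 UMIs is therefore 0 in the deposited matrix, possibly after such a correction, and the lower bounds of folds cover counting error only. No cell barcode was shared by the libraries. The authors had called 346 and 38 barcodes doublets and removed them, so no annotated cell carries such a call. That none of the 124 cells does is therefore no check on mixed cells. Among the EECs of replicate 1, cells reached 51608, 52364 and 64750 UMIs and held 7, 2 and 3 Atoh1 UMIs. Whether these were mixed cells was not tested. miR-375 itself cannot be read from this assay, which primes on poly(A) tails, so the knockout was taken from the labels. The 7 EEC markers (Chga, Chgb, Neurod1, Insm1, Pcsk1, Scg5, Cpe) were all highest in the EECs among 9 epithelial types, with summed levels of 16167 and 11318 CPM (UMIs scaled to a sum of 1000000) against 241 and 196 in secretory progenitors. Of the 7 secretory progenitor markers, 4 (Dll1, Neurog3, Sox4, Hes6) were highest in that class. Among the 9 types, Atoh1 and Gfi1 were highest in goblet cells, with means of 208 and 26.9 CPM against 68.2 and 23.0 in secretory progenitors. Dll4 was highest in EECs, with 41.7 CPM against 35.1. The classes were named from the same expression values, so the tests below describe how far the annotated classes stand apart and are not independent evidence that they differ.

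The absorptive and secretory lineages of the intestinal crypt separate through Notch signalling. A cell that escapes Notch turns on the basic helix-loop-helix factor Atoh1 and displays Delta ligands, which hold its neighbours in the absorptive lineage. Descendants of Atoh1 cells become goblet, Paneth, tuft or enteroendocrine cells, and transient activity of another such factor, Neurog3, commits a cell to the enteroendocrine lineage. Neurod1, Pax6, Isl1 and related factors then maintain hormone cells, which pack peptides or serotonin into dense-core granules and release them in response to nutrients. miR-375 is abundant in endocrine cells of the pancreas and gut.

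The promoters of 4 genes on which the comparison turns are shown here from 250 bases before to 50 bases after the RefSeq start site (mouse build GRCm38.p6), each read 5′ to 3′ on the strand of the gene. Neurog3 was detected in both classes, Sct was the hormone with UMIs in both libraries of both classes, and Chgb and Scg2, granule proteins, were at or next to 0 UMIs in secretory progenitors. The windows were chr10:62132840-62133139 (plus strand) for Neurog3, chr7:141279084-141279383 (minus) for Sct, chr2:132781392-132781691 (plus) for Chgb and chr1:79439977-79440276 (minus) for Scg2. Capitals mark 3 motifs searched on both strands: the E-boxes CAGCTG and CAGATG, which bind basic helix-loop-helix factors, and the cAMP response element TGACGTCA.
Neurog3: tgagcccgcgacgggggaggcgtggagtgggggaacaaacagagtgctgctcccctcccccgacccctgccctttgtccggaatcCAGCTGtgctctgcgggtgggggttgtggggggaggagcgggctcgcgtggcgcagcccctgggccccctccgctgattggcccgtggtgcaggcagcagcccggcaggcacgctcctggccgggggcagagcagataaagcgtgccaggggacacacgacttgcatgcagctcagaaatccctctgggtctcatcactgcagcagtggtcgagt
Sct: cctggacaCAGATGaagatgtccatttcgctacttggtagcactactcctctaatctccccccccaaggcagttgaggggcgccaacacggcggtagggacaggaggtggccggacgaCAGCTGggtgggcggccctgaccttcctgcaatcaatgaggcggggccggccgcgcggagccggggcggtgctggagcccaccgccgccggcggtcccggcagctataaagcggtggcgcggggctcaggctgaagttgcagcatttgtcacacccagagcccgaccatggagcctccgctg
Chgb: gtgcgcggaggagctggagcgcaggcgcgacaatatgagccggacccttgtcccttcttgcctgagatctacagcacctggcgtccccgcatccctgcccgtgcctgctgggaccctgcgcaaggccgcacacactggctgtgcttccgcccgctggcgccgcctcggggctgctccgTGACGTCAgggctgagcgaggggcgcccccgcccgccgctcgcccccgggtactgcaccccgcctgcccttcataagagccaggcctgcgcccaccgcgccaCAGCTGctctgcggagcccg
Scg2: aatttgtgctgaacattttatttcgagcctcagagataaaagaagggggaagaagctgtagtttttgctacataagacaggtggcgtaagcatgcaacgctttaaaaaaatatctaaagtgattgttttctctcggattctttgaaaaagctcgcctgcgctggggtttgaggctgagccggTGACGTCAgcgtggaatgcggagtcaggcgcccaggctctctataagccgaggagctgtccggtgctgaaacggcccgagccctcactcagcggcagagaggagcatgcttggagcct
TGACGTCA stood at -72 in Chgb and at -68 in Scg2, relative to the start site. Among the 18 granule and prohormone processing genes, 15 had a promoter in the table, and 3 of these held the motif (Chgb, Pcsk1 and Scg2). The motif was found for 2.03% of all genes with a promoter, 3.88% of the tested genes, 3.96% of those higher in secretory progenitors and 5.32% of those lower. CAGCTG stood at -165 in Neurog3, -132 in Sct and 31 in Chgb, and was found for 18.3% of all genes with a promoter, 17.2% of tested genes, 11.6% of the genes higher in secretory progenitors and 22.2% of those lower. CAGATG stood at -242 in Sct and was found for 19.2% of all genes with a promoter, 13.0% of tested genes, 11.3% of those higher and 15.0% of those lower. These matches are descriptions of the letters in the windows.

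The question put to the main comparison was how a secretory progenitor differs from an EEC. Secretory progenitors had more mRNA of Sox4, Dll1, Spdef and other regulators of secretory fate, and of ribosomal proteins. EECs had more mRNA of late endocrine transcription factors, granule proteins, hormones, exocytosis proteins, ion channels and nutrient receptors. Neurog3, Neurod2 and Pax4 did not pass the test in either direction. In the edgeR quasi-likelihood fit over 11013 genes, 1034 genes passed an adjusted p of 0.05, or 9.39% of those tested: 444 were higher in secretory progenitors (4.03%) and 590 lower (5.36%). The median log2 fold change of all tested genes was -0.06. Of the genes at 0 UMIs in both secretory progenitor sums, 95 tested genes had at least 20 UMIs in the EECs, and no tested gene at 0 in both EEC sums had at least 20 UMIs in secretory progenitors. Without the library term 254 genes passed (56 higher, 198 lower).

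**Figure D1:**
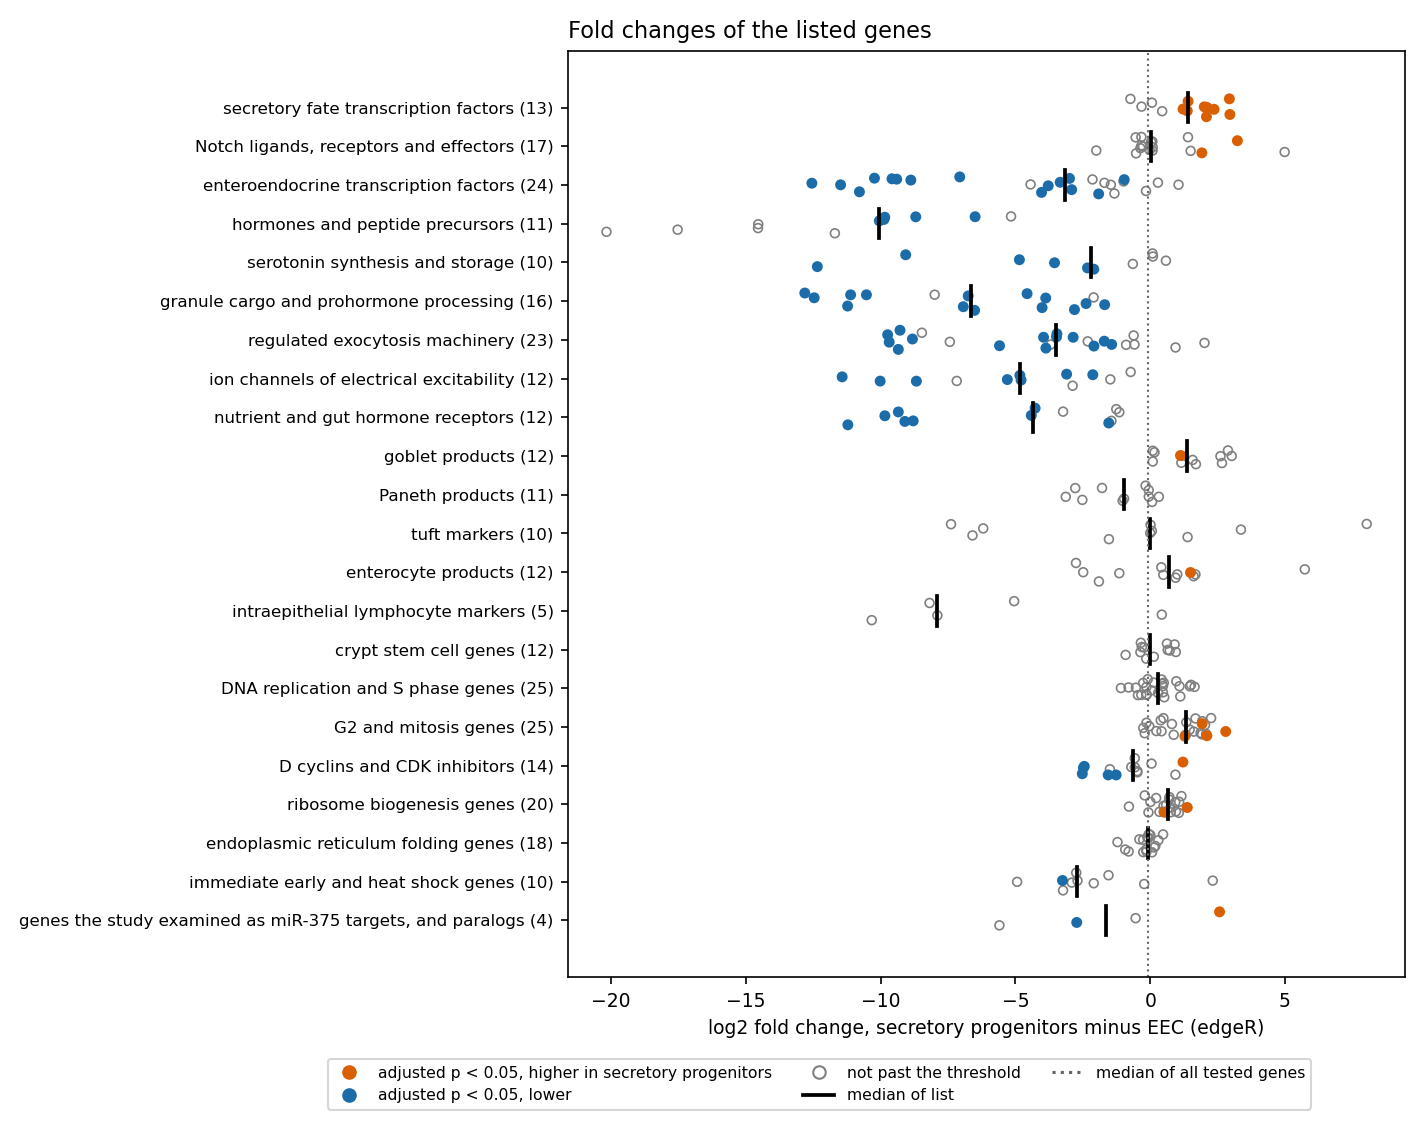
Fitted log2 fold changes, secretory progenitors minus EECs, of the tested genes of 22 lists, with the number of tested genes in brackets and 1 point per gene; filled points passed an adjusted p of 0.05 (orange higher, blue lower), black ticks are list medians and the dotted line is the median of all 11013 tested genes. The lists of endocrine products lie to the left (fitted median -6.63 for granule genes) and the secretory fate factors to the right (median 1.41), and values below about -8 belong to genes at or near 0 UMIs in secretory progenitors, where the fitted value is no measured size.

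Most secretory fate transcription factors were higher in secretory progenitors. All 13 were tested, 9 were higher in secretory progenitors, none was lower, and the median log2 fold change was 1.41. Sox4, an HMG-box factor of progenitor cells (chr13:28948919-28953713, mm10, minus strand), stood at 1055 and 1236 CPM in secretory progenitors and 297 and 306 CPM in EECs, or 1146 ± 128 against 301 ± 7.01 (SD, n = 2 libraries). The log2 fold change was 2.09 (SE 0.30, edgeR adjusted p = 0.000355). Atoh1, the factor that opens the secretory lineage (chr6:64729125-64731245, plus strand), had 34 and 14 UMIs in secretory progenitors and 16 and 0 in EECs. That was 68.2 ± 8.03 against 12.9 ± 18.2 CPM, a log2 fold change of 2.11 (SE 0.44, edgeR adjusted p = 0.00143). All 16 EEC UMIs of Atoh1 lay in 4 cells of replicate 1.

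Spdef, which drives goblet and Paneth maturation, had 54 and 27 UMIs in secretory progenitors and 14 and 1 in EECs (119 ± 2.28 against 13.6 ± 12.7 CPM), a log2 fold change of 2.96 (SE 0.54, edgeR adjusted p = 0.0012). Klf4, a goblet differentiation factor, had 93 and 55 against 57 and 2 UMIs, a log2 fold change of 2.01 (SE 0.34, edgeR adjusted p = 0.000484, a call lost with only the 4 sums and with the stricter cell filter). Hes6, a partner that antagonises the Notch effector Hes1, stood at 241 and 424 CPM against 132 and 144 CPM, a log2 fold change of 1.38 (SE 0.23, edgeR adjusted p = 0.000166). For these 3 genes both progenitor libraries lay above both EEC libraries. How many of all tested genes do so was not counted, so this separation adds nothing to the calls. Gfi1, Creb3l1, Creb3l4 and Foxa3 also passed, with log2 fold changes of 2.94, 1.41, 2.37 and 1.22 and edgeR adjusted p between 0.0157 and 0.0496. Foxa2 (0.44), Sox9 (0.06), Xbp1 (-0.32) and Foxa1 (-0.73) did not pass. With no library term in the model 5 of the 13 passed, and Gfi1, Creb3l1, Creb3l4 and Foxa3 were among those lost.

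Among Notch components the ligand Dll1 and the effector Hes1 were higher in secretory progenitors, and none of the list was lower. Of 26 members 17 were tested, 2 were higher, and the median log2 fold change of the 17 was 0.03, close to that of all genes. Dll1, a Delta ligand that activates Notch on neighbouring cells (chr17:15367354-15376872, minus strand), had 83 and 44 UMIs in secretory progenitors and 20 and 0 in EECs. That was 188 ± 11.4 against 16.1 ± 22.8 CPM, a log2 fold change of 3.24 (SE 0.40, edgeR adjusted p = 3.59e-06). Dll4, the other Delta ligand of the crypt, had 20 and 6 UMIs against 23 and 10, and its log2 fold change was 0.09 (adjusted p = 0.954). The difference between the fold changes of both ligands was not tested. Hes1, the repressor that Notch induces, had 33 and 10 UMIs against 10 and 5, a log2 fold change of 1.92 (SE 0.50, edgeR adjusted p = 0.0135), a call lost without the library term. Lfng, which modifies Notch receptors, had 12 and 12 against 5 and 6 UMIs (1.501, adjusted p = 0.102).

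In secretory progenitors the enteroendocrine transcription factors ran from present with no call in either direction (Neurog3, Neurod2) to absent. Of 26 members 24 were tested, 15 were lower in secretory progenitors, none was higher, and the median log2 fold change was -3.17 as fitted, or -2.95 with genes at 0 to 3 progenitor UMIs set to their lower bound or count ratio. Neurog3 (chr10:62133090-62134763, plus strand) had 152 and 125 UMIs in secretory progenitors and 77 and 92 in EECs, or 330.1 and 558 CPM against 124 and 427 CPM. The ranges overlapped, and the log2 fold change of 1.05 (SE 0.41) did not pass (edgeR adjusted p = 0.193). It passed in 4 of 12 alternatives, namely with no filter on low counts, with only the 4 sums compared, with cells thinned to 5000 UMIs and with a stricter cell filter (adjusted p between 3.38e-05 and 0.0181), and the adjusted p reached 0.776 with DESeq2. Neurod2, a relative of Neurod1, had 14 and 16 UMIs against 18 and 14 (log2 fold change 0.29, adjusted p = 0.827). Pax4, a repressor of early endocrine cells, had 5 and 3 against 24 and 11 UMIs (-1.70, adjusted p = 0.153), and passed with only the 4 sums and with the stricter filter.

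Insm1, a zinc-finger factor of early endocrine differentiation, stood at 130.3 and 182.97 CPM in secretory progenitors and 343 and 311 CPM in EECs, a log2 fold change of -0.96 (SE 0.25, edgeR adjusted p = 0.0123). Nkx2-2, a homeodomain factor of hormone subtypes, had 23 and 11 UMIs against 105 and 62, a log2 fold change of -1.91 (SE 0.47, edgeR adjusted p = 0.0146). Neither call held with DESeq2 or without the library term. Neurod1 (chr2:79452521-79456751, minus strand) had 18 and 1 UMIs against 276 and 134, or 21.8 ± 24.5 against 533 ± 125 CPM, and its log2 fold change was -4.03 (SE 0.40, edgeR adjusted p = 1.08e-06). Rfx6, a factor needed for hormone cells, had 6 and 3 against 95 and 32 UMIs (-3.34, SE 0.65, edgeR adjusted p = 0.00219). Isl1 had 18 and 0 UMIs against 298 and 191, and its log2 fold change of -4.44 (SE 1.08) did not pass (adjusted p = 0.0743), although it did with thinned cells and with no filter.

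A further set of late factors was close to undetected in secretory progenitors. Pax6 had 0 and 1 UMIs there and 134 and 55 in EECs, a ratio of 155 with a 95% counting interval of 27.4 to 6144. Fev, a marker of serotonin cells, had no UMI in the secretory progenitors and 102 and 126 in EECs, so it was at least 62.2-fold higher in EECs when 3 counts over the group are taken as the floor. Runx1t1 (79 and 37 UMIs in EECs), Etv1 (54 and 19) and Lmx1a (43 and 9) were also at 0 in secretory progenitors and at least 31.7-fold, 19.9-fold and 14.2-fold higher in EECs. Hhex, Onecut3 and Pdx1 had 34, 31 and 19 EEC UMIs in all, none in secretory progenitors, and were at least 9.28-fold, 8.46-fold and 5.19-fold higher. All of these passed the edgeR test (adjusted p between 3.57e-08 and 0.0399). With DESeq2 7 of the 24 factors passed and without the library term 8, each in the same direction, and Pax6, Fev, Lmx1a, Hhex and Onecut3 were among those lost with DESeq2.

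**Figure D2:**
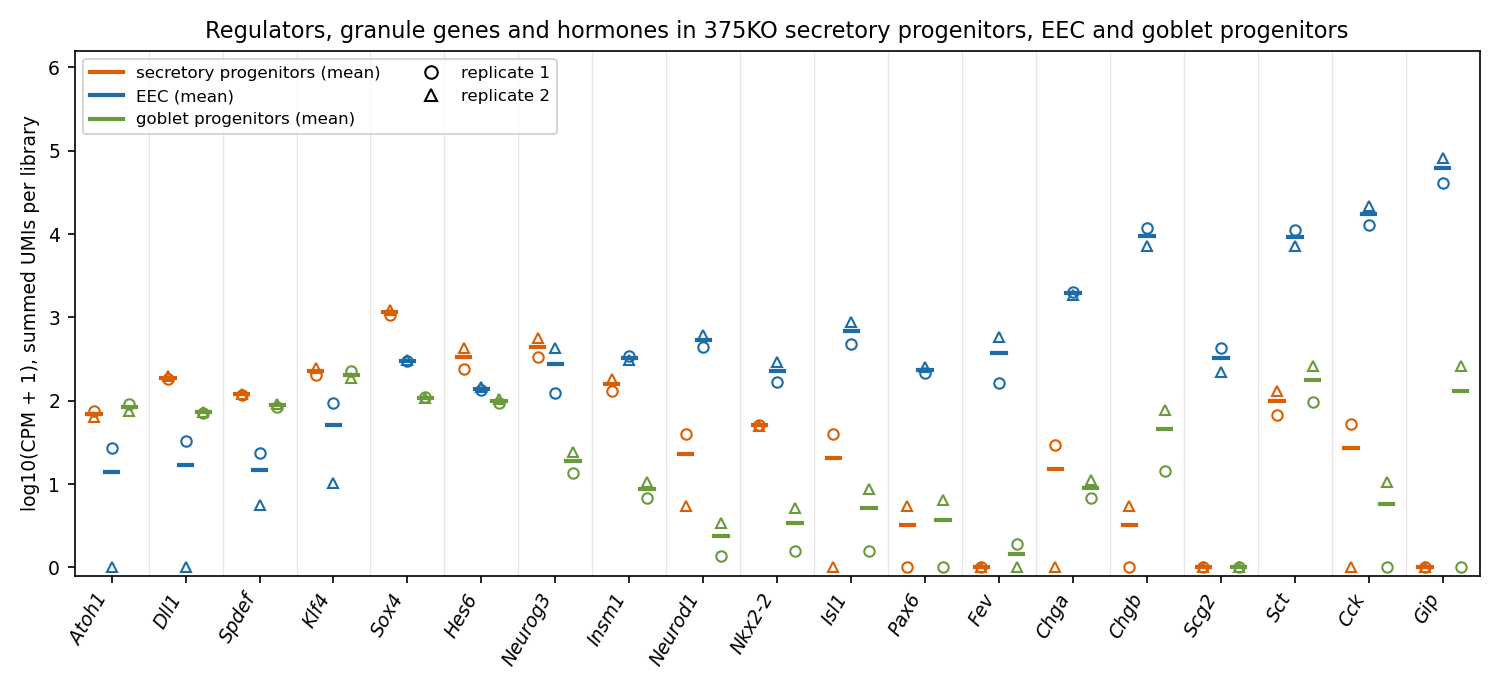
Levels of 19 regulators, granule genes and hormones as log10(CPM + 1) of the UMIs summed per library, with circles for replicate 1, triangles for replicate 2 and bars for the log10(mean CPM + 1) of both, in secretory progenitors (orange), EECs (blue) and goblet progenitors (green). From left to right the orange bars pass from above the blue (Atoh1, Dll1, Spdef, Klf4, Sox4, Hes6), through overlap at Neurog3, to far below at Chgb, Scg2, Cck and Gip, while the green symbols share the level of orange at Atoh1, Spdef and Klf4 and lie far below it from Neurog3 to Nkx2-2.

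Most granule cargo and prohormone processing genes were lower in secretory progenitors. Of 18 members 16 were tested, 14 were lower, none was higher, and the median log2 fold change was -6.63 as fitted, or -4.38 with 5 genes at their lower bound and 3 at their count ratio. Chga, a chromogranin of dense-core granules, had 13 and 0 UMIs in secretory progenitors and 1247 and 405 in EECs (14.1 ± 19.96 against 1945 ± 91.3 CPM), a log2 fold change of -6.52 (SE 0.58, edgeR adjusted p = 0.000135). Chgb, the second chromogranin, had a single UMI in the secretory progenitors, in replicate 2, and 7397 and 1563 UMIs in EECs, a ratio of 7336 with a 95% counting interval of 1316 to 289806. Scg2, a secretogranin, had none against 266 and 47 UMIs, at least 85.4-fold higher in EECs. Cpe and Pcsk1, which trim and cleave prohormones, had 5 and 0 against 547 and 198 UMIs and 9 and 0 against 161 and 29 UMIs. Their log2 fold changes were -6.75 (SE 1.08, edgeR adjusted p = 0.00838) and -3.88 (SE 0.46, edgeR adjusted p = 9.03e-07). The amidating enzyme Pam had 0 and 1 against 124 and 49 UMIs, a ratio of 142 (95% counting interval 25.1 to 5627). Without the library term 10 of the 16 passed and with DESeq2 8, in the same direction, and Scg2 was among those lost with DESeq2.

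Hormone mRNA took up 7.81% and 13.3% of all EEC UMIs and 0.0439% and 0.0138% of secretory progenitor UMIs. Of 20 hormones and peptide precursors 11 were tested, 5 were lower in secretory progenitors and none was higher, with a median log2 fold change of -10.05 as fitted. With 7 hormones at 0 progenitor UMIs set to their lower bound and 1 to its count ratio the median was -8.32. The count of lower hormones ranged from 3 without the library term to 11 with no filter on low counts. Sct, the secretin precursor, was the tested hormone with UMIs in both progenitor libraries: 31 and 29 UMIs against 6909 and 1545 in EECs, or 98.4 ± 43.9 against 9152 ± 2800 CPM, and a log2 fold change of -6.50 (SE 0.57, edgeR adjusted p = 0.00019). Goblet progenitors had 176.6 ± 114 CPM of Sct, so its presence was not particular to secretory progenitors. Cck, for cholecystokinin, had 24 and 0 UMIs against 7995 and 4657 (-8.70, SE 1.34, edgeR adjusted p = 0.0187), a call lost with DESeq2, without the library term and with only the 4 sums. Tac1, the tachykinin precursor, had 0 and 1 against 1030 and 460 UMIs, a ratio of 1220 (95% counting interval 219 to 48220).

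Several hormones differed by far in level and did not pass the test. Gip, an incretin, had no UMI in the 50 secretory progenitors and 25474 and 17791 UMIs in the EECs, at least 11809-fold higher there, with an edgeR adjusted p of 0.202. Gcg, the glucagon precursor, had none against 2759 and 2092 UMIs, at least 1324-fold higher, with an adjusted p of 0.175. Both passed with only the 4 sums compared and with no filter on low counts, Gcg also with the stricter cell filter, and neither under the other alternatives. Sst and Nts had 1172 and 1337 UMIs in EECs of replicate 1 and none in EECs of replicate 2. All 144 secretory progenitor UMIs of Ghrl, for ghrelin, lay in 1 cell of replicate 1, against 1730 and 1917 UMIs in EECs (adjusted p = 0.275). In the EECs hormone UMIs were spread over subtypes: among cells with at least 10 hormone UMIs, Tac1 led in 15 and Gip in 12 of 50 in replicate 1, and Gip, Cck and Tac1 led in 5 each of 19 in replicate 2.

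The remaining endocrine functions pointed the same way. In serotonin synthesis and storage, 6 of 10 genes were lower in secretory progenitors and none was higher (median -2.21). Tph1, the rate-limiting enzyme of serotonin synthesis, had no UMI against 203 and 31, at least 63.9-fold higher in EECs. Ddc, the next enzyme, was present in both classes, with 50 and 17 UMIs against 374 and 97, and its log2 fold change was -2.33 (SE 0.26, edgeR adjusted p = 5.28e-07). Gch1, which makes the cofactor of Tph1, had 6 and 2 against 186 and 107 UMIs (-4.85, SE 0.44, edgeR adjusted p = 1.81e-08).

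In the regulated exocytosis machinery 23 of 26 genes were tested, 14 were lower in secretory progenitors and none was higher (median -3.48 as fitted, -2.52 with genes at 0 to 3 progenitor UMIs at their bound or ratio). Cplx2, a complexin that clamps vesicle fusion, had 2 and 0 against 87 and 42 UMIs, a ratio of 52.8 (95% counting interval 14.3 to 441). The calcium sensors Syt13 and Syt7 were lower by -3.46 and -2.86 on the log2 scale (edgeR adjusted p = 0.00118 and 0.00073). Of 24 ion channels of electrical excitability 12 were tested and 8 were lower (median -4.81 as fitted, -3.07 at bounds and ratios). Cacna1a, a voltage-gated calcium channel, kept 33 and 5 UMIs against 198 and 38 (-2.13, SE 0.43, edgeR adjusted p = 0.00353), and the sodium channel Scn3a had none against 112 and 15, at least 34.7-fold higher in EECs. Of 20 nutrient and gut hormone receptors 12 were tested and 8 were lower (median -4.34 as fitted, -2.71 at bounds and ratios). The long-chain fatty acid receptor Ffar1 had no UMI against 73 and 26, at least 27.02-fold higher in EECs, and the short-chain fatty acid receptor Ffar2 had 23 and 13 against 98 and 43 UMIs (-1.54, SE 0.42, edgeR adjusted p = 0.0239). Without the library term 5 of the 10 serotonin genes, 3 of the 23 exocytosis genes, 3 of the 12 channels and 2 of the 12 receptors passed, and Cacna1a and Ffar2 did not, while with DESeq2 4, 7, 3 and 3 passed and Tph1, Scn3a and Ffar2 did not.

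Cell cycle genes divided into early G1 regulators and mitotic genes. Of the 15 D cyclins and CDK inhibitors 14 were tested, 5 were lower in secretory progenitors and 1 was higher (median -0.64). Cdkn1a, for p21, had 143 and 20 UMIs in secretory progenitors and 565 and 408 in EECs (-2.48, SE 0.55, edgeR adjusted p = 0.0266, a call lost with only the 4 sums). Cdkn1c, for p57, had 59 and 6 against 341 and 134 UMIs (-2.52, SE 0.49, edgeR adjusted p = 0.00838, a call lost with DESeq2 and without the library term). Cdkn2d (-2.45), Btg2 (-1.56) and Cdkn1b (-1.26) were lower as well, and the call of Cdkn1b was lost in 6 of 12 alternatives. Cdk4, the kinase that D cyclins activate, was higher, with 169 and 109 against 101 and 57 UMIs (1.22, SE 0.20, edgeR adjusted p = 0.000135). Of 25 G2 and mitosis genes 4 were higher and none was lower (median 1.34): Cdc20, an activator of the anaphase promoting complex, had 34 and 23 against 10 and 2 UMIs (2.80, SE 0.51, edgeR adjusted p = 0.000441), and Ccnb2, Cenpa and Ube2c had log2 fold changes of 2.10, 1.93 and 1.29. Mki67, the usual proliferation marker, had 15 and 9 against 33 and 5 UMIs and did not pass (-0.14, adjusted p = 0.973), and none of 25 DNA replication genes passed (median 0.29). When cells with at least 10 UMIs of markers of another type were left out, Ube2c no longer passed (0.73), as in 6 further alternatives. The count of higher mitosis genes ranged from 2 without the library term to 10 with no filter on low counts and 11 with the stricter cell filter, and was 8 of 13 tested with only the 4 sums, and no mitosis gene was lower in any of these.

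Products of other cell types were present on both sides. Goblet products summed to 17261 and 26445 CPM in secretory progenitors, 7766 and 2544 CPM in EECs and 53011 and 70026 CPM in goblet progenitors. Of 14 goblet products 12 were tested, all 12 had positive fold changes, and 1 passed, the mucin glycosyltransferase Galnt12 (1.10, adjusted p = 0.0481), a call lost in 6 of 12 alternatives. The count of higher goblet products ranged from 0 without the library term to 8 with no filter, and was 3 with only the 4 sums. Tff3, a trefoil peptide, stood at 8424 and 18511 CPM in secretory progenitors and 2302 and 2057 CPM in EECs. It did not pass (2.61, SE 0.80, edgeR adjusted p = 0.0893) except with DESeq2 and with no filter. Fcgbp, a mucus protein, had 998 and 444 against 354 and 8 UMIs (3.03, adjusted p = 0.197).

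Zg16 and Muc2 UMIs of EECs lay in few cells, whereas other goblet products were spread more widely. Tff3 was found in 41 of 54 and 7 of 20 EECs and Agr2 in 18 of 54 and 0 of 20. Such a spread in replicate 1 was not particular to goblet products. The Paneth products Defa24 and Lyz1 were found in 33 and 38 of 54 EECs of replicate 1 and 0 and 2 of 20 of replicate 2. The enterocyte product Fabp1 was found in 29 of 54 and 0 of 20. The cause was not tested. In replicate 1, 336 of the 348 Zg16 UMIs were in 1 EEC, and 112 and 71 of the 189 Muc2 UMIs were in 2 EECs. In replicate 2, 97 and 74 of the 182 Ccl5 UMIs, a lymphocyte gene, were in 2 EECs, and in secretory progenitors of replicate 1, 159 of the 162 Apoa1 UMIs, an enterocyte gene, were in 1 cell. Lymphocyte markers summed to 3.22 and 1281 CPM in EECs and 2.17 and 22.3 CPM in secretory progenitors, enterocyte products to 3135 and 1736 CPM against 3672 and 1040 CPM, and Paneth products to 841 and 167 CPM against 343 and 80.3 CPM. With the cells that held at least 10 UMIs of such markers left out, a setting chosen after the values were seen, 1079 genes passed (496 higher, 583 lower), of which 943 were among the 1034. In that setting 3 goblet products were higher (median 3.57).

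Outside the lists, genes with at least 100 CPM in the higher class that led the progenitor side by fold change were Rnase1, Mt2, Mfge8, Hmgb3, Cks2, Phgr1, Ptgr1, Cdc42ep5, Mt1 and Gcnt3. Rnase1, a secreted ribonuclease, had 51 and 57 UMIs in secretory progenitors and 8 and 0 in EECs (4.28, SE 0.97, edgeR adjusted p = 0.0275). Mt2 and Mt1, the metallothioneins that bind zinc and copper, had log2 fold changes of 3.16 (adjusted p = 0.00428) and 1.798 (adjusted p = 1.08e-06), and both calls were lost without the library term. Mfge8, a milk fat globule protein that bridges apoptotic cells and phagocytes, had 47 and 29 against 10 and 4 UMIs (2.86, SE 0.46, edgeR adjusted p = 0.000126).

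The EEC side was led by Rbp4, Vim, Reg4, Rasd1, Slc6a19, Cyp4b1, Itpr1, Hmgn3, Cldn4 and Bex2. Rbp4, the retinol carrier of plasma, and Vim, an intermediate filament, had no UMI in secretory progenitors and 554 and 133, and 370 and 124, in EECs, at least 188-fold and 135-fold higher. Reg4, a secreted lectin, had 6 and 0 against 2093 and 1440 UMIs (-8.83, SE 1.47, edgeR adjusted p = 0.00702). Its EEC UMIs lay in 9 of 54 cells of replicate 1 and 3 of 20 of replicate 2. In replicate 2, 1428 of the 1440 were in 1 cell. Hmgn3, a nucleosome-binding protein, had 5 and 0 against 252 and 162 UMIs (-5.98, SE 0.44, edgeR adjusted p = 3.57e-10).

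Goblet progenitors (162 and 84 cells, with sums of 5372527 and 1667044 UMIs) are the annotated class closest in name, and secretory progenitors were set against them in the same fit. Secretory progenitors had more mRNA of early endocrine transcription factors, Sox4, Hes6, Dll1 and Cdkn1c, and less of 9 of 25 mitotic genes and 4 of 18 endoplasmic reticulum folding genes. Of 11013 genes 388 passed, or 3.52%, with 219 higher in secretory progenitors (1.99%) and 169 lower (1.53%), and without the library term 41 passed. The median log2 fold change of all tested genes was -0.07. This contrast shares the secretory progenitor sums with the comparison above.

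Of the 24 tested endocrine factors 8 were higher in secretory progenitors and none was lower (median 1.92). Neurog3 stood at 444 ± 161 CPM against 17.9 ± 7.72 CPM in goblet progenitors (4.67, SE 0.44, edgeR adjusted p = 0.00193). Insm1 stood at 156.6 ± 37.2 against 7.68 ± 2.71 CPM (4.46, SE 0.32, edgeR adjusted p = 2.27e-10). Neurod2 had 2 and 0 UMIs in goblet progenitors, so secretory progenitors exceeded them by a ratio of 154 (95% counting interval 39.1 to 1332). Nkx2-2, Neurod1, Pax4 and St18 were also higher, with log2 fold changes of 5.01, 4.90, 4.70 and 4.14 (adjusted p between 0.000552 and 0.0193). Neurod1, Pax4 and St18 lost the call without the library term. All secretory progenitor UMIs of Neurod1 and Pax4 lay in cells that also had a Neurog3 UMI. So did 23 and 10 of the 23 and 11 UMIs of Nkx2-2.

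No hormone, granule or goblet gene passed between the progenitor classes in this fit. Muc2, the main gel-forming mucin, had 80 and 31 UMIs in secretory progenitors and 15542 and 2824 in goblet progenitors (156 ± 25.03 against 2293 ± 848 CPM), and its log2 fold change of -3.90 did not pass (adjusted p = 0.0699) except in 4 of 12 alternatives, DESeq2 among them. With no filter and with only the 4 sums Zg16, Spink4, Clca1, Guca2a and Agr2 were also lower in secretory progenitors. Sox4 (3.41, adjusted p = 9.6e-06), Hes6 (1.72, adjusted p = 2.62e-06) and Foxa2 (1.71, adjusted p = 0.000832) were the secretory fate factors that passed, and Atoh1 was not among them (-0.26, adjusted p = 0.715). Dll1 was higher (1.397, adjusted p = 0.00274), as was Lfng (1.71, adjusted p = 0.0243), and both calls were lost without the library term. Of 25 mitosis genes 9 were lower in secretory progenitors (median -1.57), among them Ube2c, Cdk1 and Aurkb, and of 25 DNA replication genes 3 were lower (median -1.37). The folding genes Calr, Hsp90b1, P4hb and Pdia6 were lower, 4 of 18 (median -0.49). Cdkn1c had 59 and 6 UMIs against 5 and 6 (5.81, SE 0.81, edgeR adjusted p = 0.00307). Of the 59 and 6, 58 and 5 lay in secretory progenitors that also had a Neurog3 UMI (6 and 2 cells). A few secretory progenitors also held Pou2f3, the master factor of tuft cells, with 5 and 3 UMIs against 2 and 1 in goblet progenitors, a ratio of 27.4 (95% counting interval 6.58 to 160.5), a call lost without the library term and with thinned cells.

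Across the 9 epithelial types, the order of levels placed secretory progenitors at the top for some regulators and between EECs and goblet progenitors for others. Mean Neurog3 was 444 CPM in secretory progenitors, 276 in EECs, 17.9 in goblet progenitors, 1.504 in transit-amplifying cells and 0.397 in goblet cells, and the other types had no UMI. The leading pair overlapped between libraries. Mean Sox4 was 1146 CPM in secretory progenitors, followed by tuft cells at 432, EECs at 301, stem cells at 189.8 and goblet progenitors at 108. Mean Dll1 was 188 CPM in secretory progenitors, 97.0 in goblet cells and 71.7 in goblet progenitors. Atoh1 was higher elsewhere, at 208 CPM in goblet cells and 82.6 in goblet progenitors against 68.2 in secretory progenitors. Insm1 and Neurod1 were ordered from EECs (327 and 533 CPM) through secretory progenitors (157 and 21.8) to goblet progenitors (7.68 and 1.39). The in-between values are means over unlike cells. In secretory progenitors Insm1 stood at 418 and 594 CPM in cells with a Neurog3 UMI and 21.0 and 42.0 in the others. Neurod1 had 0 UMIs in the others.

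Tubb2b, a neuronal tubulin, had a mean of 169 CPM in secretory progenitors, 59.8 in EECs and 25.8 in goblet progenitors, and was higher in secretory progenitors than in both (1.47 and 2.75, adjusted p = 0.00158 and 9.79e-08). Vwa5b2, Aplp1, Olfm1 and Map1b were lower than in EECs (-2.71, -3.97, -2.17 and -4.67) and higher than in goblet progenitors, where they had 8, 25, 1 and 0 UMIs in all. In secretory progenitors Map1b had 6 UMIs, in 2 cells of replicate 1, and 0 in replicate 2. Olfm1 had 16 UMIs in 6 cells of replicate 1 and 1 UMI in replicate 2. All of these cells also had a Neurog3 UMI. Against goblet progenitors the call of Map1b was lost in 3 alternatives and that of Aplp1 in 1, and against EECs those of Tubb2b, Vwa5b2, Olfm1 and Map1b were lost in 1 each.

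**Figure D3:**
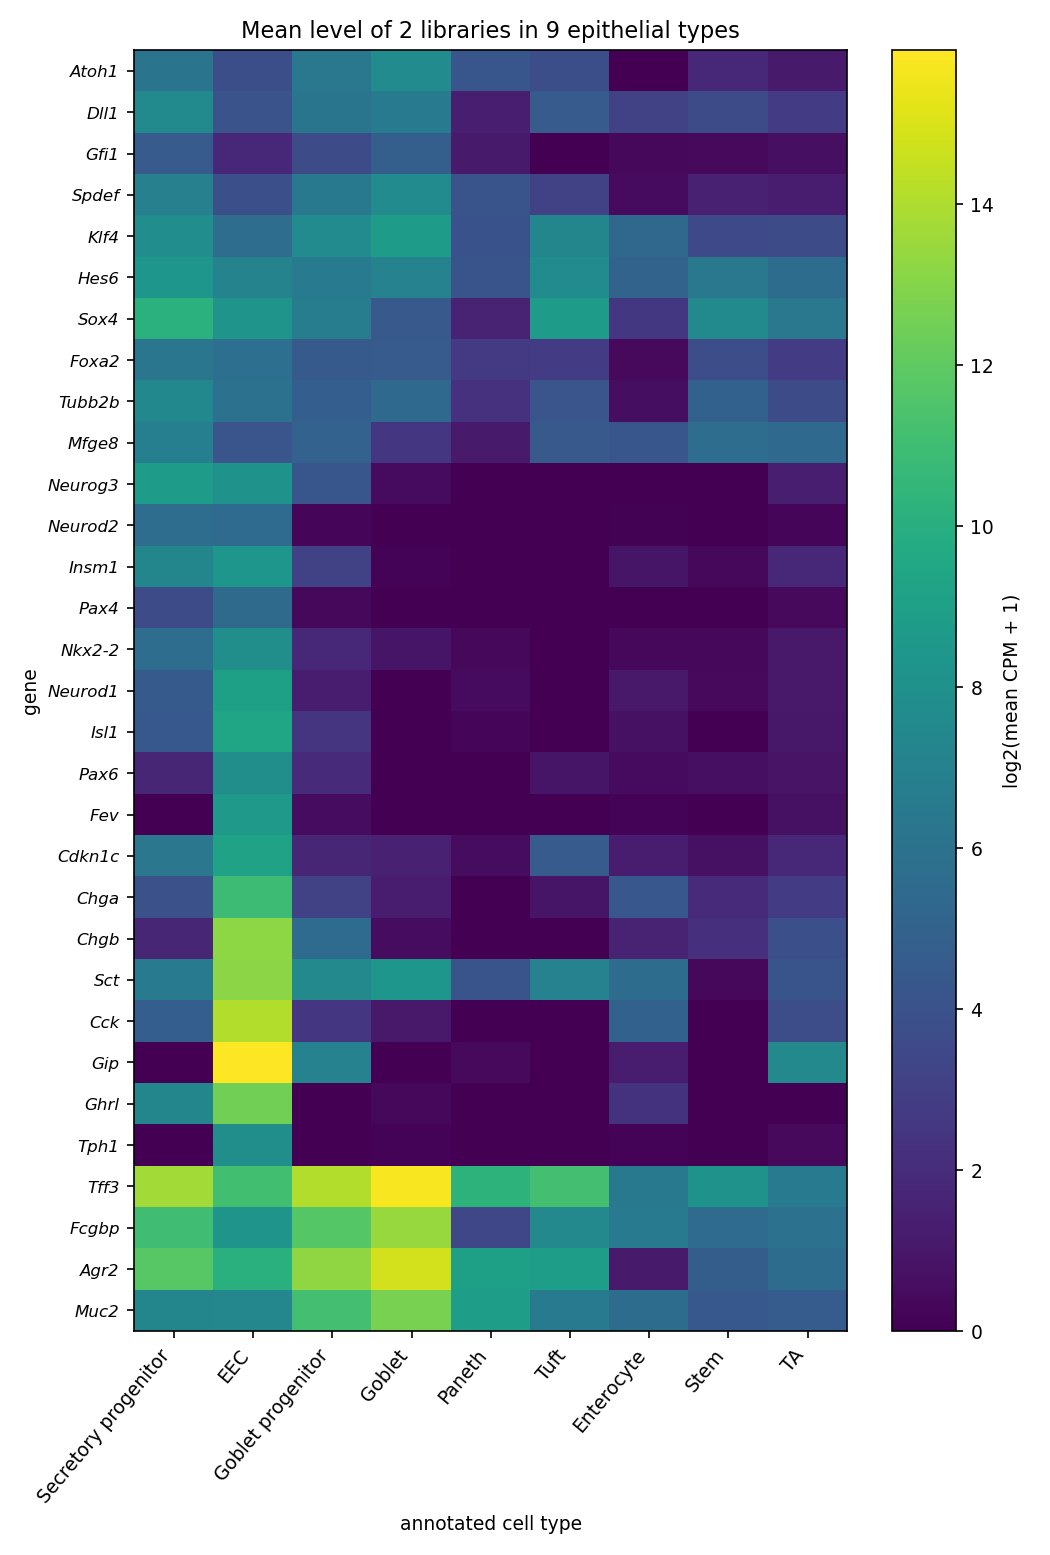
Heat map of log2(mean CPM + 1), the mean of 2 libraries, for regulators, granule genes, hormones and goblet products in 9 annotated epithelial types. Neurog3, Neurod2, Insm1 and Nkx2-2 are brightest in the secretory progenitor and EEC columns, whereas Fev, Chgb, Gip and Tph1 are bright in EECs and dark in secretory progenitors, and Tff3, Fcgbp and Agr2 are bright in secretory progenitors, goblet progenitors and goblet cells.

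Shares of cells with at least 1 UMI gave the same picture for some genes and not for others. These shares have exact (Clopper-Pearson) 95% intervals, which cover counting error only. Neurog3 was found in 14 of 50 secretory progenitors (28.0%, 16.2 to 42.5) and 18 of 74 EECs (24.3%, 15.1 to 35.7), against 0 of 1313 enterocytes, which serve as background here (median depths of 12227, 8438.5 and 16011 UMIs). With every cell thinned to 5000 UMIs the shares were 28.0% and 24.7%. Atoh1 was found in 46.0% of secretory progenitors, 5.41% of EECs and 0.0762% of enterocytes (32.0%, 2.74% and 0% thinned), and Dll1 in 76.0%, 10.8% and 13.3% (52.0%, 5.48% and 4.42% thinned), so that the EEC share of Dll1 was at the enterocyte level.

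Neurod1 was found in 14.0% of secretory progenitors and 91.9% of EECs, with 0.228% of enterocytes, and Insm1 in 40.0%, 91.9% and 0.685%. Chga was found in 10.0% of secretory progenitors and 83.8% of EECs, but also in 19.5% of enterocytes (4 of 50 cells, 75.3% and 7.39% thinned), so the secretory progenitor share was no higher than background. Sct was found in 34.0% of secretory progenitors against 14.1% of enterocytes (10 of 50 cells and 4.88% thinned) and 90.5% of EECs. Fev was found in 0 of 50 secretory progenitors and 73.0% of EECs.

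Within the secretory progenitors Neurog3 and Atoh1 were detected in different cells. Of 50 cells, 14 had Neurog3 alone, 23 had Atoh1 alone, 13 had neither and none had both, with 9, 15, 7 and 0 cells in replicate 1 and 5, 8, 6 and 0 in replicate 2. Neurog3 was never marginal where it was found in this class, since the fewest UMIs in a Neurog3 cell were 6, whereas 11 of the 23 Atoh1 cells had a single Atoh1 UMI. The 14 Neurog3 cells held 183976 UMIs with none of Atoh1, which allows a level of up to 16.3 CPM, and the other 36 cells held 48 Atoh1 UMIs in 500582, or 95.9 CPM. In EECs 1 cell had both, 17 had Neurog3 alone and 3 had Atoh1 alone. Dll1 was found in 21 of the 23 Atoh1 cells and in 7 of the 14 Neurog3 cells.

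The Neurog3 cells of the secretory progenitor class also held other endocrine factors. All 14 had Insm1 and Sox4, as did 6 and 32 of the other 36. Of the 14, 7 had Neurod1 and 9 had Neurod2, and none of the other 36 had Neurod1 or Neurod2. Chgb was found in none of the 14, and in 12 of the 18 EECs with Neurog3. Chga was found in 4 of the 14 and in all 18. Fcgbp, the goblet product, was found in 12 of the 14 and in 34 of the other 36, against 26 of 74 EECs and 29 of 1313 enterocytes. Its level was 1349 and 995 CPM in secretory progenitors with Neurog3 and 2478 and 2320 in those without, so it was not particular to the Neurog3 cells.

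**Figure D4:**
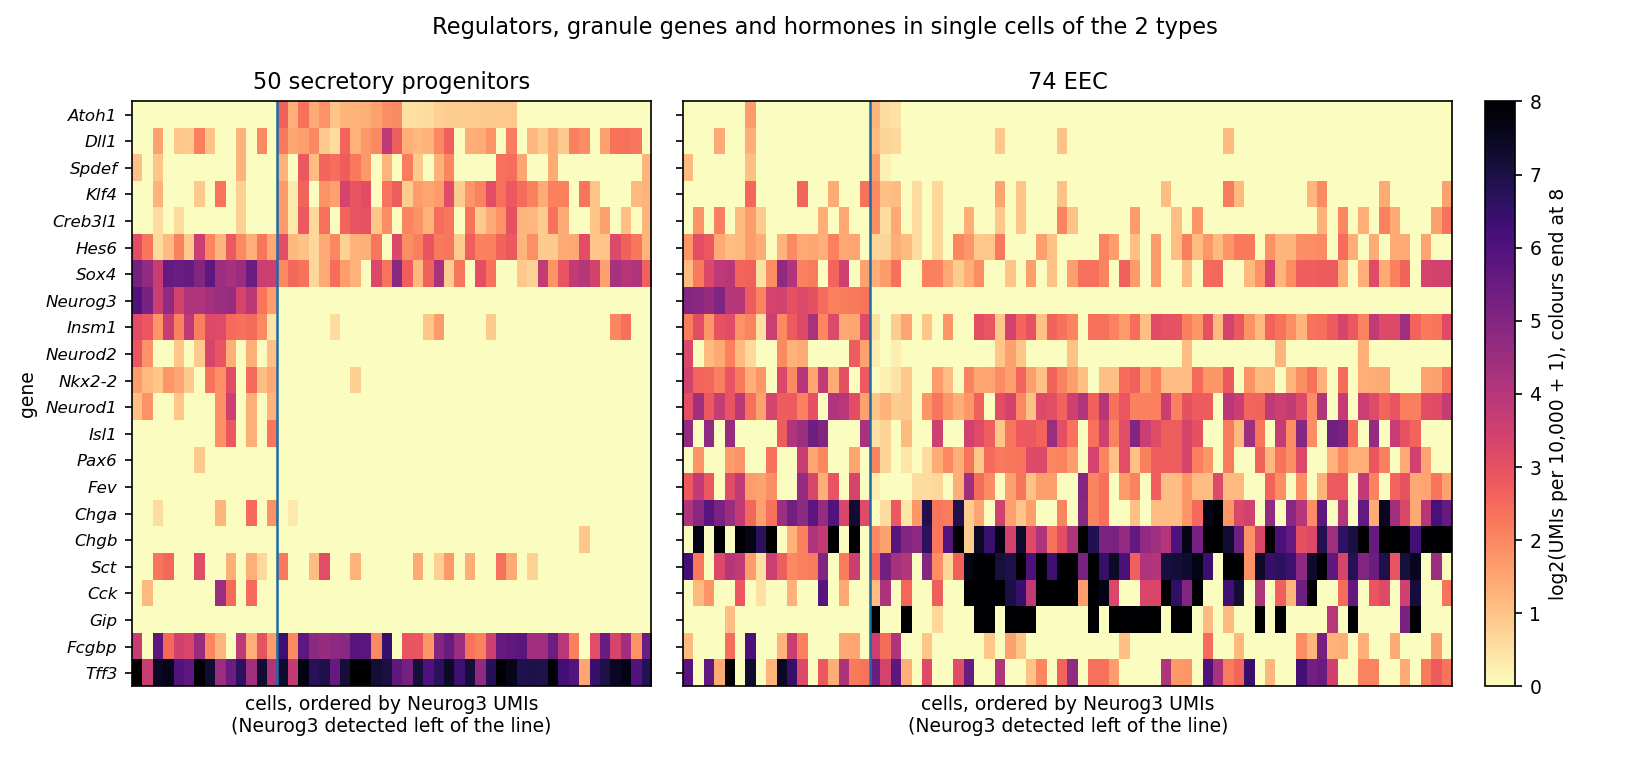
Each column is 1 cell and each row a gene, coloured by log2(UMIs per 10000 of the cell + 1) with colours ending at 8, for the 50 secretory progenitors and the 74 EECs, ordered by Neurog3 with Neurog3 cells left of the blue line. In the secretory progenitors Atoh1 is empty left of the line and Insm1, Neurod2, Nkx2-2 and Neurod1 are filled mostly there, while Tff3 and Fcgbp fill both sides; in the EECs Insm1, Neurod1 and Chga are filled on both sides and Cck and Gip mainly on the right.

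Because of this pattern, both classes were split by whether a cell had a Neurog3 UMI. The split was chosen after the values were seen and is given as a description without a test. In EECs it is less sharp, since 4 of the Neurog3 cells there had only 2 Neurog3 UMIs. Secretory progenitors with Neurog3 were 9 and 5 cells (126718 and 57258 UMIs) and those without 22 and 14 (333754 and 166828 UMIs). EECs with Neurog3 were 13 and 5 cells (111448 and 41844 UMIs) and those without 41 and 15 (509190 and 173569 UMIs).

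Sox4 stood at 2478 and 3144 CPM in secretory progenitors with Neurog3 and 515 and 581 in those without, and at 574 and 669 in EECs with Neurog3 and 236 and 219 in those without. Insm1 stood at 418 and 594 CPM in secretory progenitors with Neurog3, 21.0 and 42.0 without, 476 and 478 in EECs with Neurog3 and 314 and 271 without. The Neurog3 cells of both classes thus overlapped in Insm1 while the remaining progenitors were low.

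The goblet-side regulators ran the other way within the secretory progenitors. Spdef stood at 31.6 and 17.5 CPM with Neurog3 and 150 and 156 without, Klf4 at 55.2 and 17.5 with against 258 and 324 without, and Creb3l1 at 23.7 and 0 with against 174 and 306 without. Agr2, a goblet disulfide isomerase, stood at 1239 and 157 CPM with Neurog3 and 4701 and 4298 without. In replicate 2 Agr2 had 0 UMIs in EECs, transit-amplifying cells, stem cells and enterocytes, where replicate 1 had 1385, 815, 90 and 46, and the cause was not tested. Tff3 did not follow, at 6471 and 20102 with and 9165 and 17965 without.

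Neurod1 stood at 142 and 17.5 CPM in progenitors with Neurog3, 0 in those without, and 574 and 1052 in EECs with Neurog3. Fev was at 0 in both progenitor sets and at 359 and 884 CPM in EECs with Neurog3. Chgb stood at 0 and 0 in progenitors with Neurog3 and 17084 and 9870 CPM in EECs with Neurog3. Thus among Neurog3 cells, those called secretory progenitors had more Sox4 and those called EECs had Fev and granule mRNA.

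Hormones differed in direction between the EEC sets. Cck stood at 359 and 191 CPM in EECs with Neurog3 and 15623 and 26785 in those without, and Gip at 0 and 23.9 with against 50029 and 102495 without. Ghrl ran the other way, at 8973 and 37257 CPM with against 1434 and 2063 without, as did Tac1, at 3185 and 3417 with against 1326 and 1826 without. These values rest on few cells. Among EECs with Neurog3, Ghrl was found in 5 of 13 and 4 of 5 cells, and Tac1 in 6 and 2. In each library 1 such cell held most of the Ghrl UMIs, 639 of 1000 and 1020 of 1559. The median share of hormone UMIs per cell was 0.511% and 2.31% in EECs with Neurog3 and 8.06% and 14.5% in those without. Mfge8 (284 and 402 CPM) and Tubb2b (347 and 489 CPM) were highest in secretory progenitors with Neurog3 among the 4 sets in both libraries.

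**Figure D5:**
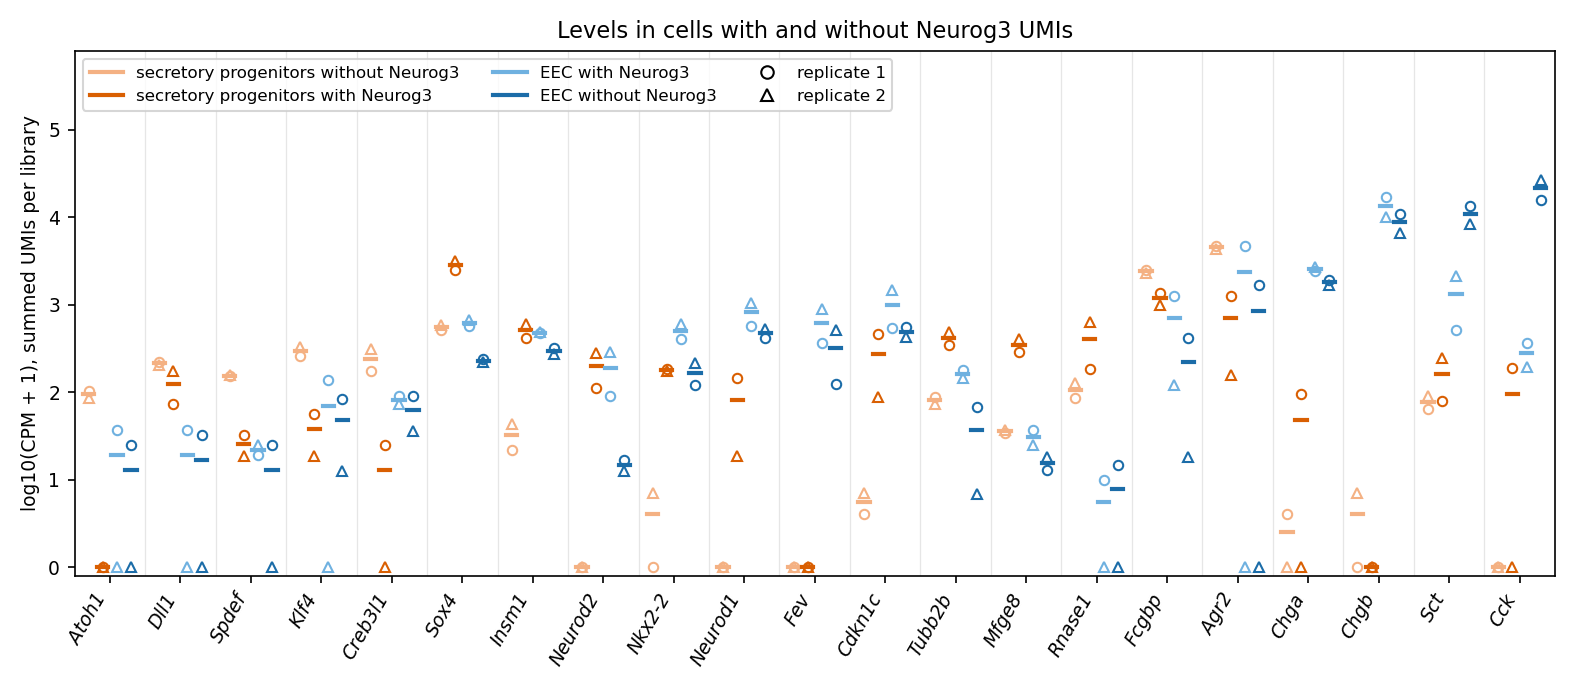
Levels as log10(CPM + 1) of UMIs summed per library for cells with and without a Neurog3 UMI, with circles for replicate 1, triangles for replicate 2 and bars for both, in secretory progenitors (pale orange without, dark orange with) and EECs (pale blue with, dark blue without). Spdef, Klf4 and Creb3l1 are highest in secretory progenitors without Neurog3, Sox4, Tubb2b and Mfge8 in those with it, Insm1 and Neurod2 overlap between the Neurog3 cells of both classes, and Fev, Chga and Chgb are high in EECs with or without Neurog3 only.

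Genes that the study examined as miR-375 targets, with their paralogs, were listed for both classes, all of which lacked miR-375, so these values carry no information on the effect of the loss. Zfp36l2, which encodes an mRNA decay factor, stood at 82.5 and 53.6 CPM in secretory progenitors and 111 and 130.0 CPM in EECs (-0.54, SE 0.31, edgeR adjusted p = 0.322), and 143 and 141 CPM in goblet progenitors (-0.97, adjusted p = 0.0347, a call lost without the library term and with the stricter cell filter). Zfp36l1, its paralog, was higher in secretory progenitors than in EECs, with 62 and 24 against 16 and 4 UMIs (2.57, SE 0.32, edgeR adjusted p = 1.46e-06). Zfp36, the third member of the family, was lower, with 11 and 4 against 111 and 29 UMIs (-2.73, SE 0.56, edgeR adjusted p = 0.00511). The opposite signs of Zfp36l1 and Zfp36 held in both libraries. Zfp36 is itself an immediate early gene, and 10 immediate early and heat shock genes, which respond to tissue dissociation, summed to 432 and 411 CPM in secretory progenitors and 2659 and 2173 CPM in EECs, and their part in the Zfp36 difference was not tested. Arl4c had no UMI in secretory progenitors and 2 and 0 in EECs.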

How the data were processed

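Single-cell 3′ libraries (10x Genomics v2 chemistry) of jejunal crypts from 2 miR-375 knockout mice were analysed. The deposited UMI counts per gene and cell were made by the authors with Cell Ranger 3.0.1 on mm10, and cells were filtered, checked for doublets and annotated by the authors with Seurat (3.2.1 in the submitters' processing notes). The study removed ambient RNA with SoupX, but which files this applies to was not given in the sources used here, and the matrices hold stored entries of 0 (2.56% and 4.19% of entries). The authors also deposited the percent of mitochondrial UMIs of each cell and a doublet score from scDblFinder. Annotation was joined to the count table by order and to the matrices by library and cell barcode. The shared count table also held 2937 cell columns and the doublet calls 6059 entries of samples not analysed here, which were not used.

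Counts were summed per library and annotated type (18 sums, 9 epithelial types, intraepithelial lymphocytes left out), filtered with filterByExpr, TMM-normalised and tested with edgeR 4.0.16 (limma 3.58.1, R 4.3.3) quasi-likelihood F-tests with type and library as terms (8 residual degrees of freedom), two-sided, with Benjamini-Hochberg adjustment over 11013 genes at 0.05. Library was a term because all sums of a library come from the same mouse. CPM are per all UMIs of a sum and SD is over n = 2 libraries. Where a class had no UMI, a floor of 3 counts over the group (4.38 CPM in secretory progenitors) gave the lower bound of a fold, and for 1 to 3 counts a ratio with an exact 95% interval of counting error was given.

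Named genes were the up to 4 largest changes past the threshold per list and direction, all fate and endocrine transcription factors, hormones at 20 or more UMIs, list-defining genes that did not pass, and outside the lists the 10 largest changes per direction with at least 100 CPM and the same sign in both libraries. Other genes of the text (Tubb2b, Vwa5b2, Aplp1, Olfm1, Map1b and those of the Neurog3 split) were chosen after their values were seen. A few genes that the rule names are not reported here. The 22 lists and the classes were chosen with earlier results of these data known. Alternatives were other size factors, DESeq2 1.42.0, no filter on low counts, only the sums compared, no library term, the study's shared table (14847 of 16751 genes matched), cells thinned to 5000 UMIs, a stricter cell filter (at least 2000 genes, at most 10% mitochondrial UMIs), mitochondrial genes, lymphocytes, Paneth sums or single libraries in or out, and, added after the data were seen, cells with at least 10 UMIs of markers of another type left out. Promoters were from RefSeq (GRCm38.p6), gene positions from GENCODE M21. Python 3.11.15, numpy 2.4.6, scipy 1.17.1, pandas 2.3.3 and matplotlib 3.10.9 were used.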

Additional observations from a re-analysis of the deposited data

How the results depend on the processing

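Between secretory progenitors and EECs the number of genes past the threshold stayed between 798 and 1190 in 11 of 12 alternatives, and fell to 254 without the replicate block (250 of them among the 1034). Between secretory progenitors and goblet progenitors it was 388, and it rose to 678 with no filter on low counts and 782 with only the 4 sums compared, and fell to 250 with thinned cells and 41 without the replicate block. The block rests on each library being 1 mouse. Of the 99 named genes past the threshold against EECs, 40 were lost without the block, 31 with DESeq2, 13 with thinned cells and at most 8 under any other alternative, and none changed sign in any, including with either library left out, which leaves no residual degrees of freedom and so gives values with no test. Of the 30 against goblet progenitors, 18 were lost without the block and at most 6 otherwise, with no change of sign. The cause of these shifts was not tested. With only the 4 sums, 4703 genes could be tested against EECs and 7902 against goblet progenitors. Genes that could not be tested are not counted as lost. Of the 99, 81 kept the call and 6 lost it with only the 4 sums, and 83 kept it with thinned cells. Of the 30, 23 kept it with only the 4 sums. The others of each set could not be tested there. With 50 and 74 cells, genes under about 4.38 CPM in secretory progenitors or 3.59 CPM in EECs could not be told from absent.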

Other observations

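Cytosolic ribosomal protein genes, a list added after the results were seen, were higher in secretory progenitors than in EECs as a group. Of 83 genes, 71 passed the edgeR test and all 83 had a positive log2 fold change, with a median of 0.88. They summed to 247114 and 329061 CPM in secretory progenitors, 154246 and 194074 CPM in EECs and 204066 and 292519 CPM in goblet progenitors, so both progenitor classes lay above the EECs of the same library. Hormones took 7.81% and 13.3% of EEC UMIs, and their part in the lower ribosomal share was not tested. Of 20 ribosome biogenesis genes 2 were higher (median 0.65), among them Nhp2, with 94 and 93 UMIs in secretory progenitors and 67 and 32 in EECs (1.38, a call lost without the library term).

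Of the 10 immediate early and heat shock genes 1 passed, Junb, with 16 and 10 UMIs in secretory progenitors and 249 and 92 in EECs (-3.25, SE 0.58, edgeR adjusted p = 0.00664). Fos had 31 and 9 against 274 and 83 UMIs and did not pass (-2.70, adjusted p = 0.0864) except in 5 of 12 alternatives. The count was the lowest over the settings: 7 of the 10 were lower with DESeq2, 8 with no filter on low counts, 7 of 7 tested with only the 4 sums, 7 of 9 with thinned cells and 4 with the stricter cell filter, and none was higher in any of these. Crypt stem cell genes (12, median -0.01) and tuft markers (10, median 0.01) held no gene past the threshold against EECs. Gadd45b, a stress-induced gene, was higher in secretory progenitors than in EECs (1.53, adjusted p = 0.0165) and than in goblet progenitors (2.59, adjusted p = 0.000102), and both calls were lost without the library term.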
